A study of Homo sapiens with 2 samples.

Results

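Binding of DEK, a chromatin protein that contacts both histones and DNA, was examined by ChIP-seq at hypoxia and HIF target genes in 786-O, an established cell line of human renal carcinoma. The 32 genes were taken from a list of targets of the hypoxia-inducible factors and were looked up among 19974 protein-coding genes on chromosomes 1 to 22 and X, which left 19942 other genes. A gene was counted when its annotated span, extended by 1, 3 or 10 kb on each side, overlapped a DEK region, meaning a stretch where peaks of both replicates overlapped. The data are 2 ChIP-seq libraries of 1 group, labelled negative control with genotype WT and antibody DEK, described in the files as Cas9 ChIP replicates. Which of the cells or the precipitation was the negative control is not stated, and the name DEK region rests on the antibody entry. No library of edited cells, input or other antibody was analysed here, so the values below compare genes with genes and replicate with replicate. Separate cultures are not mentioned for the replicates, whose spread may therefore be technical. RefSeq lists NDUFA4L2 under the symbol COXFA4L2, and the other 31 genes matched by symbol.

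HIF is a pair of subunits, an oxygen-labile alpha subunit (HIF-1 alpha or HIF-2 alpha, encoded by EPAS1) and ARNT. In normal oxygen the VHL ubiquitin ligase marks the alpha subunit for destruction. In low oxygen the pair binds short hypoxia response elements with the core ACGTG or GCGTG and switches on genes of angiogenesis, glucose uptake, glycolysis, pH control and matrix formation. The 786-O line lacks working VHL and is known for constant HIF-2 alpha activity. That activity does not by itself show which of these genes are active in the line without hypoxia. The peak lists hold no expression levels, and the activity of the genes in these cultures was not measured.

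Replicate 1 had 19128 peaks and replicate 2 had 24580, and their overlaps formed 12590 shared regions. The authors' fold enrichment is a linear ratio at the peak summit, with medians over all peaks of 3.99 (replicate 1) and 3.89 (replicate 2). Where no peak is listed, none reached the authors' threshold at this depth.

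DEK regions lay within 1 kb of 16 of the 32 hypoxia and HIF target genes. These were TGFA, VEGFA, ANGPTL4, ENO1, SLC2A1, HK2, PFKFB3, LDHA, ENO2, SLC2A3, PDK1, BNIP3, CA12, P4HA2, KDM3A and DDIT4. That is 50% of the genes (95% Wilson interval 33.6 to 66.4), against 24.4% of the other protein-coding genes (23.8 to 25.0). Windows of 3 kb added ADM, EPO and NDRG1 and gave 19 genes (59.4%, interval 42.3 to 74.5), against 26.8% of other genes. Windows of 10 kb added CA9 and gave 20 genes (62.5%, interval 45.3 to 77.1), against 32.9% of other genes. The intervals cover counting error only, genes that share a region or a neighbourhood are not independent, and no test was made because the genes were listed with earlier results of these libraries known.

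The single libraries gave higher counts. Any peak of replicate 1 lay within 1 kb of 20 genes (62.5%), against 32.6% of other genes, and any peak of replicate 2 of 22 genes (68.8%), against 37.8%. Within 3 kb the counts were 22 genes in replicate 1 (68.8%, against 35.8% of other genes) and 24 in replicate 2 (75%, against 41.5%). Within 10 kb they were 25 genes in replicate 1 (78.1%, against 43.4%) and 27 in replicate 2 (84.4%, against 49.7%). The share was above that of other genes in each library and at each width.

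The hypoxia genes were shorter than other genes on the whole, with a median span of 17.3 kb, against 24.2 kb. DEK regions within 1 kb were found at 2 of the 9 hypoxia genes with a span under 10 kb (22.2%, against 10.4% of other genes of that span), at 6 of 9 from 10 to 30 kb (66.7%, against 19.7%), at 5 of 11 from 30 to 100 kb (45.5%, against 30.3%) and at 3 of 3 over 100 kb (against 46.0%). With the other genes weighted to these span classes, their share was 23.2%, which would give 7.42 genes in place of the 16 counted. Promoters of the hypoxia genes were also rich in CpG dinucleotides. Among the 5603 other genes with at least 30 CpG in a promoter window the share was 33.6%. Of the 17 hypoxia genes with as many CpG, 11 had a region within 1 kb (64.7%, 95% Wilson interval 41.3 to 82.7), a comparison added after the data were seen. The cut of 30 is the median of the hypoxia genes' own counts. Of all 28 hypoxia genes with a promoter window, 14 had a region within 1 kb, so the share was lower among those with fewer CpG.

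**Figure D1:**
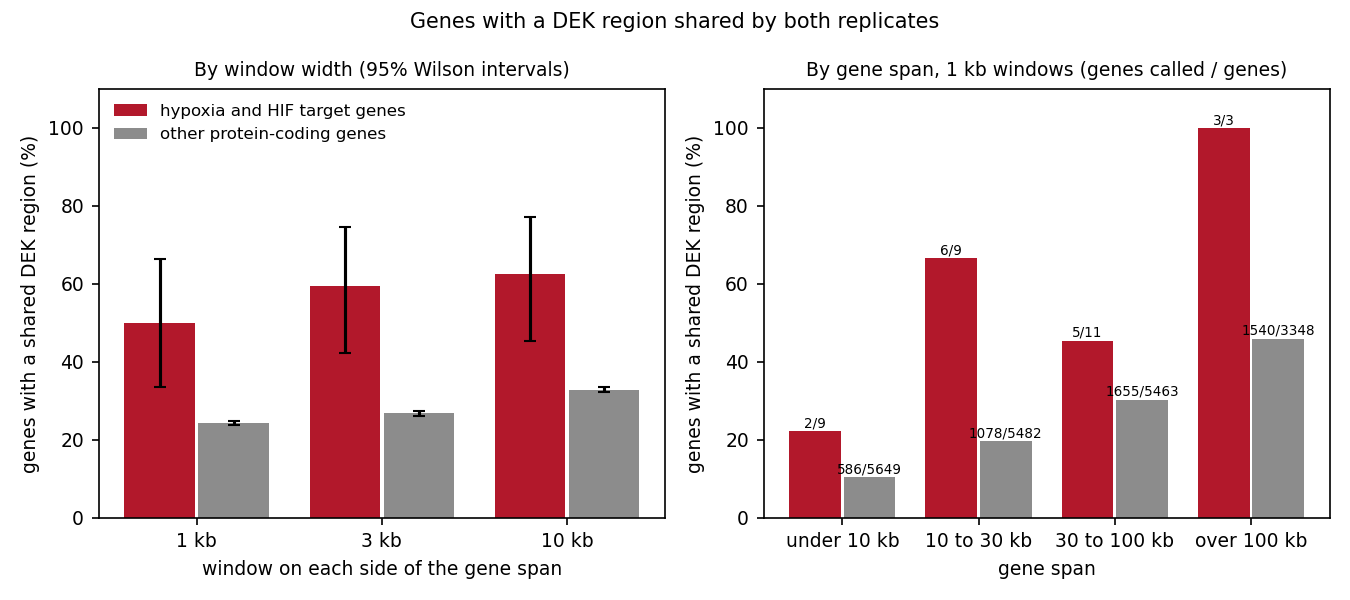
The left panel plots the percentage of genes with a DEK region shared by both replicates within 1, 3 and 10 kb of the gene span, for the 32 hypoxia and HIF target genes (red) and the 19942 other protein-coding genes (grey), with 95% Wilson intervals. The right panel splits the 1 kb windows by gene span, with genes called over genes above each bar, and the hypoxia genes are the higher set in each class, from 22.2% against 10.4% in the shortest class to 3 of 3 genes against 46.0% in the longest.

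Several of these genes held more than 1 region. The 32 genes had 36 DEK regions within 1 kb, or 2.77 regions per 100 kb of window, against 0.619 per 100 kb for other genes. Windows were pooled here without weighting to gene span or CpG. The longest hypoxia gene spans 181717 bp and the longest other gene 2473620 bp. PFKFB3 alone held 8 of the 36, and without it the density was 2.50 per 100 kb. At least 3 regions were found at 6 genes (PFKFB3, SLC2A1, TGFA, HK2, CA12 and P4HA2, 18.8%), against 3.7% of other genes. The summit of 33 of the 36 lay inside the gene (91.7%, against 86.8% of gene and region pairs of other genes), and the exceptions were VEGFA, DDIT4 and ENO2.

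The regions were seldom at the transcription start. RefSeq promoter windows, 250 bases before to 50 after a start, were found for 28 of the 32 genes, and VEGFA, SLC2A3, NDRG1 and BNIP3L were not matched. VEGFA is therefore outside the counts at starts, and its shared region had its summit 431 bp outside the end of lower coordinate, which is the start side of that gene. A DEK region overlapped the promoter window of 0 of the 28 genes, against 4.55% of 15785 other genes. That share would give 1.27 of 28 genes, so a lower frequency was not detectable with so few genes. Within 1 kb of a listed start a region was found at P4HA2 only (3.57%, against 6.62% of other genes). The distance from the start to the nearest summit still had a smaller median for the hypoxia genes, 9.47 kb against 59.4 kb for other genes. In single libraries a peak of replicate 1 reached into 1 of the 28 windows, that of LDHA (3.57%, against 6.74% of other genes), and no peak of replicate 2 did (0 genes, against 7.92%).

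**Figure D2:**
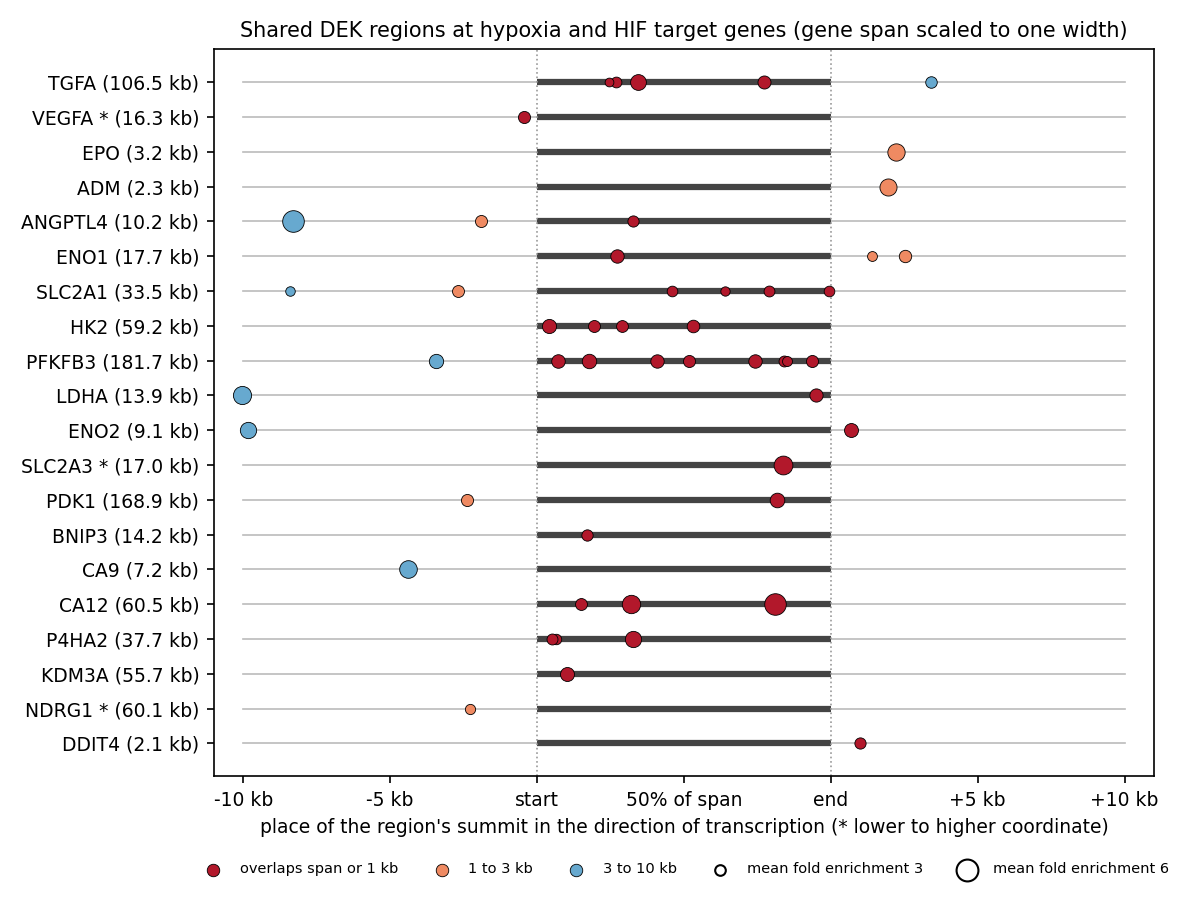
Each row is a hypoxia or HIF target gene with a DEK region within 10 kb, its span drawn to a common width (its true length is in parentheses) with 10 kb flanks in kb, in the direction of transcription, or from lower to higher coordinate for the 3 genes marked with an asterisk. Circles mark region summits, coloured by the narrowest window that reaches the region and sized by mean fold enrichment, and 33 of the 36 red circles lie inside the bar of the gene.

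The promoter sequences of LDHA, HK2 and LOX, from RefSeq, are shown to set the HIF motif beside the DEK peaks near it. A peak of 1 library reached into that of LDHA, a shared region lay just downstream of that of HK2, and LOX had no peak in either library within 10 kb. Counting both strands, these had the most matches to ACGTG among the 42 windows of the hypoxia genes. Capitals mark ACGTG on either strand (CACGT on the strand shown). The palindrome CACGTG, an E-box that MYC and USF proteins also bind, holds it on both strands. The windows are chr11:18394313-18394612 on the plus strand, chr2:74834920-74835219 on the plus strand (the second listed start of HK2) and chr5:122078210-122078509 on the minus strand, all in GRCh38.p14, and run 5′ to 3′.
LDHA: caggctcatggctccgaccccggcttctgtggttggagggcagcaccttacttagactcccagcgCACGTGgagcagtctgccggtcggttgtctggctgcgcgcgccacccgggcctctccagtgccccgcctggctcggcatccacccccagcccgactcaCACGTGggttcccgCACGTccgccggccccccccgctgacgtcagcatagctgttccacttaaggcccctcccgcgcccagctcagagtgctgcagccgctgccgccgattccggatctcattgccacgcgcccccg
HK2: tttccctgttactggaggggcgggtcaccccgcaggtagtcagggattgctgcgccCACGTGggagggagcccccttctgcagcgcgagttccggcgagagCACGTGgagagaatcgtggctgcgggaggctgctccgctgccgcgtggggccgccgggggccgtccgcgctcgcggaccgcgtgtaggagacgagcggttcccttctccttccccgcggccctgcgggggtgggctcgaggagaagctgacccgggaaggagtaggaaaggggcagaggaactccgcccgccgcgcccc
LOX: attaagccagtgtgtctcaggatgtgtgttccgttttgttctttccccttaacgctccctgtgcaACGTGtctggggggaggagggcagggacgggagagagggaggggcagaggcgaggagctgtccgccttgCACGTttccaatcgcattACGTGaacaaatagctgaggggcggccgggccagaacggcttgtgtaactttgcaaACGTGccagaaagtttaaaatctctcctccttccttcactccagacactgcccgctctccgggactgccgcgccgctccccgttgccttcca
LDHA has 3 such stretches, HK2 has 2 and LOX has 4. The replicate 1 peak at LDHA (chromosome 11, 18394044 to 18394410, fold enrichment 3.56, −log10 q 3.13) covered the first 98 bases of the window, with the first of the 3 stretches, and its summit lay 406 bp before the start. Replicate 2 had no peak there. The region nearest to the HK2 start had its summit 1304 bp downstream of it.

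The motif was common in the hypoxia genes' windows with or without DEK regions. ACGTG on either strand was in 22 of 42 windows of the 28 genes (52.4%), against 23.0% of 22114 windows of other genes and 23.1% of all 22156 windows. When GCGTG was also allowed it was in 37 windows (88.1%), against 54.6% of other windows and 54.7% of all. CACGTG was in 6 windows (14.3%), against 8.33% of other windows and 8.34% of all. Several starts of a gene can share bases, so windows are not independent, and the median CpG count per window was 29.5 against 21. Of the genes with a DEK region within 1 kb, 9 of 20 windows held ACGTG, and of those without, 13 of 22 did. A match is only a run of letters and no measure of binding.

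The regions within 1 kb of these genes ranked low by fold enrichment. Over the 36 regions within 1 kb the median was 3.39, at the 19.9th percentile of all shared regions, against 4.04 and the 46.4th percentile for the 7687 regions of other genes. Taking 1 region per gene, the highest-ranked, the medians were 3.88 for the 16 hypoxia genes and 4.32 for 4859 other genes. In the lowest 20% by percentile lay 18 of the 36 regions (50%, against 17.7% of the regions of other genes), and 1 region reached 5-fold in both libraries (2.78%, against 6.47%). A −log10 q of at least 5 in both was reached by 11 of the 36 (30.6%, against 36.3%). PFKFB3, SLC2A1 and TGFA, with several regions each, weigh on these figures.

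The low ratios went with a high local background. Summit pileup, the number of overlapping fragments recovered from the deposited fold and p values, had medians of 26 (replicate 1) and 28 (replicate 2) over the hypoxia genes' regions, against 21 and 23 over those of other genes. The background at the same summits had a median of 6.22 and 7.04 fragments, against 4.47 and 4.81. Pileup and background were both higher at the hypoxia genes, the background in greater proportion. That proportion restates the lower fold, since the background was solved from the fold, and is no separate observation. The part of the background in the number and rank of the regions was not tested. Pileups of the 36 regions ranged from 17 to 54 in replicate 1 and from 17 to 60 in replicate 2. A pileup of 17 has an exact 95% Poisson interval of 9.90 to 27.2, for counting error only, so a single fold value is coarse.

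**Figure D3:**
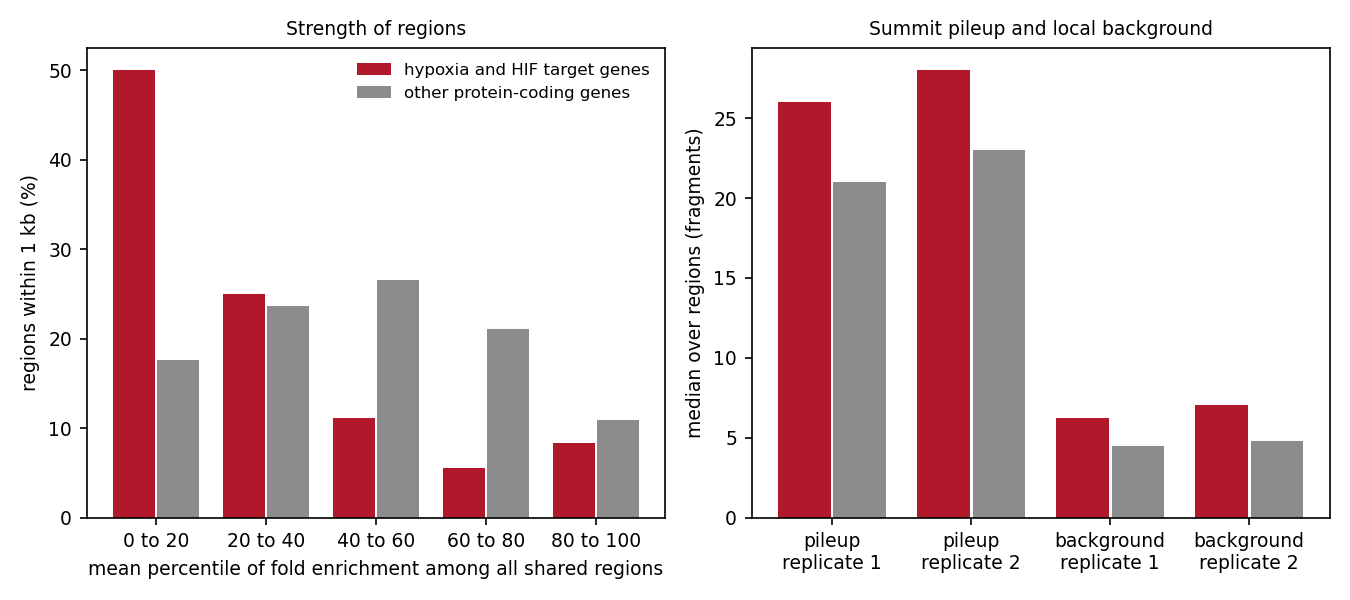
The left panel plots the percentage of regions within 1 kb of hypoxia and HIF target genes (red, 36 regions) and of other protein-coding genes (grey, 7687 regions) in bins of 20 percentiles of mean fold enrichment, and the lowest bin holds 50% and 17.7%. The right panel plots the medians of the summit pileup and of the local background in fragments for each replicate, both higher at the hypoxia genes.

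Among the genes for secreted factors, 3 of 6 had a region within 1 kb (against 24.4% of other genes) and 5 of 6 within 3 kb (against 26.8%). Counts in sets this small are descriptions, with no test. At VEGFA, the main angiogenic growth factor, the region lay just outside the end of lower coordinate (chromosome 6, 43769492 to 43769896), with the summit 431 bp from the gene, and its fold enrichment was 3.48 in replicate 1 and 3.31 in replicate 2 on pileups of 17 in both. TGFA, which encodes a ligand of the EGF receptor, held 4 regions, the strongest in its interior (chromosome 2, 70516718 to 70517876) at 4.33 and 4.38, the weakest at 2.46 in both. The strongest spanned 1159 bp and had the highest pileups of the 36, 54 and 60. ANGPTL4, a secreted inhibitor of lipoprotein lipase, had 3.10 and 3.21 inside the gene (chromosome 19, 8367293 to 8367648).

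Some regions outside the genes were stronger, though the median over all regions hardly changed. It was 3.40 over the 51 regions within 10 kb (against 4.04 at other genes), beside 3.39 over the 36 within 1 kb. Taking the highest-ranked region within 10 kb of each gene, the medians were closer, 4.20 for 20 hypoxia genes and 4.31 for 6551 other genes. A −log10 q of at least 5 in both libraries was reached by 19 of the 51 (37.3%, against 36.1%). ANGPTL4 had 6.19 in replicate 1 and 5.69 in replicate 2 at a region 8306 bp before its start (chromosome 19, 8355564 to 8356312), and no other region within 10 kb of the 32 genes had a higher mean. ADM, which encodes the vasodilator peptide adrenomedullin, had 5.30 and 4.10 past its end (chromosome 11, 10308915 to 10309896), and EPO, the red cell growth factor, 5.00 and 4.51 past its end (chromosome 7, 100725657 to 100726125). Their summits lay 1964 and 2207 bp from the gene. STC2, which encodes the secreted glycoprotein stanniocalcin 2, had a peak in replicate 2 only (3.76).

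Of the genes for glucose uptake and glycolysis, 7 of 12 had a region within 1 kb (against 24.4% of other genes), and wider windows added none. SLC2A3, the neuronal-type glucose transporter GLUT3, had the highest values of this set inside the gene (chromosome 12, 7933249 to 7933652), 5.45 in replicate 1 and 4.86 in replicate 2. SLC2A1, the widespread transporter GLUT1, held 4 regions with low ratios, from 2.92 to 3.08 in replicate 1 and from 2.30 to 3.22 in replicate 2. The highest-ranked (chromosome 1, 42932114 to 42932644) had 2.92 and 3.22. The backgrounds at these 4 summits ran from 9.72 to 15.1 fragments in replicate 1 and from 10.5 to 17.3 in replicate 2, above the medians of 4.47 and 4.81 at other genes. A further SLC2A1 region lay 2678 bp before the start (chromosome 1, 42961214 to 42961977), at 2.96 and 3.75.

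HK2, a hexokinase that phosphorylates glucose on entry, held 4 regions, with 3.80 and 4.07 at the highest-ranked (chromosome 2, 74836209 to 74836771). PFKFB3, which makes the activator of phosphofructokinase, held 8 across its 182 kb, with values from 3.03 to 4.04 in replicate 1 and from 2.56 to 4.38 in replicate 2. Its highest-ranked region (chromosome 10, 6176689 to 6177287) had 3.76 and 4.26. The replicates differed most at another (chromosome 10, 6218755 to 6219323), with 3.08 in replicate 1 and 4.38 in replicate 2. PFKFB4, its relative, had only a replicate 2 peak inside (2.83) and non-overlapping peaks of both libraries farther out (3.91 in replicate 1 and 4.33 in replicate 2).

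Lower in the pathway, ENO1, the general enolase, had 3.77 and 3.70 (chromosome 1, 8873627 to 8874106) and 2 regions past its end. ENO2, the neuronal enolase, had 4.07 and 3.68 just past its end (chromosome 12, 6924283 to 6924579), a region that also lies within 1 kb of ATN1. LDHA, which turns pyruvate to lactate, had 4.02 and 3.35 close to its far end (chromosome 11, 18407415 to 18407870) and a stronger region 10055 bp before its first start (4.75 and 5.22).

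The remaining glycolytic genes had no shared region. ALDOA, which encodes aldolase A, had no peak in either library within 10 kb. TPI1, the triose isomerase, had 2 peaks of replicate 2 within 1 kb (3.08 and 3.24) and PGK1, a kinase that makes ATP in glycolysis, had 1 (4.23). GPI, the glucose phosphate isomerase, had a replicate 1 peak within 1 kb (4.37) and a separate replicate 2 peak farther out (4.10).

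Of the 4 mitochondrial genes, 2 had a region within 1 kb (against 24.4% of other genes). PDK1, the kinase that shuts pyruvate out of the mitochondrion, had 4.42 and 3.68 deep inside its 169 kb (chromosome 2, 172693031 to 172693455), and BNIP3, a mitophagy receptor, 3.17 and 3.21 (chromosome 10, 131979317 to 131979679). A replicate 2 peak next to the BNIP3 region was stronger (4.55) and had no partner. BNIP3L, the related receptor, had no peak in either library within 10 kb, and NDUFA4L2, which lowers respiratory chain activity, had 1 replicate 1 peak within 1 kb (3.35).

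The carbonic anhydrases, enzymes that help to export acid, held the strongest region inside any of the 32 genes, in CA12. CA12 had 5.59 in replicate 1 and 6.26 in replicate 2 (chromosome 15, 63332630 to 63333162, mean 5.92 ± 0.473, SD, n = 2), at the 92.6th percentile. Its other regions had 4.88 and 5.22 (chromosome 15, 63362231 to 63362734) and 3.53 and 3.16. CA9, the renal carcinoma marker, had no peak within 3 kb of the gene and a shared region whose summit lay 4377 bp before its start (chromosome 9, 35669407 to 35669861), at 4.35 and 5.34.

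Of the 3 genes for collagen and matrix enzymes, P4HA2, a subunit of prolyl 4-hydroxylase, had 3 regions, the strongest (chromosome 5, 132215414 to 132215773) at 4.06 and 4.92 and the pair nearest the start at 3.14 and 2.78 and at 3.25 and 2.93. P4HA1, the other main isoform of that subunit, and LOX, which cross-links collagen, had no peak in either library within 10 kb.

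Of the 5 regulators and stress genes, 2 had a region within 1 kb (against 24.4% of other genes) and 3 within 3 kb (against 26.8%). KDM3A, a histone H3K9 demethylase, had 3.88 and 3.91 inside the gene (chromosome 2, 86442554 to 86442969). The summit lay 1280 bp downstream of the nearest listed start and 5697 bp from the start of the annotated span. DDIT4, an inhibitor of mTORC1, had 3.14 and 3.20 past its end (chromosome 10, 72276869 to 72277181). NDRG1 had separate peaks inside the gene, 3.66 in replicate 1 and 5.17 in replicate 2, which did not overlap, and a shared region past its end of lower coordinate (2.87 and 2.93). MXI1, a MYC antagonist, had 1 peak in each library at different places (3.69 in replicate 1 and 3.34 in replicate 2), and ANKRD37 had none within 10 kb.

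**Figure D4:**
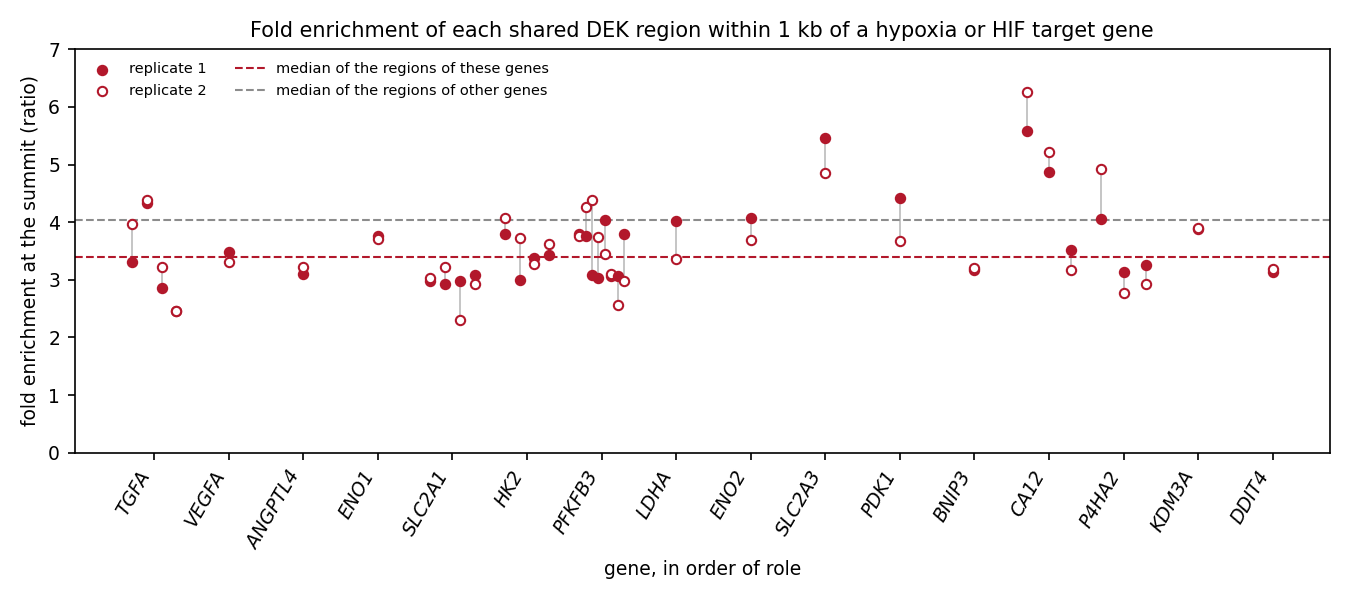
Each pair of points is a DEK region within 1 kb of a hypoxia or HIF target gene, with the authors' fold enrichment at the summit in replicate 1 (filled) and replicate 2 (open) joined by a line, genes in order of role. The dashed lines are the medians of the regions of these genes (3.39) and of other genes (4.04), and CA12 and SLC2A3 stand highest.

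The replicates stayed close at most of the 36 regions, each of which by definition had a peak in both libraries. The absolute log2 ratio of fold enrichment between them had a median of 0.15, against 0.17 over the regions of other genes, and replicate 1 was the higher in 16 of 36. Peaks of 1 library without a partner numbered 15 of 52 in replicate 1 and 18 of 56 in replicate 2 within 1 kb, with a median −log10 q of 3.39 and 3.47. Of all peaks kept, 67.8% in replicate 1 and 52.2% in replicate 2 lay in a shared region, and the rest had no partner. In all, 5 genes (ALDOA, BNIP3L, P4HA1, LOX and ANKRD37) had no peak in either library within 10 kb, 2 (STC2 and PGK1) had peaks of replicate 2 only, and 5 (PFKFB4, TPI1, GPI, NDUFA4L2 and MXI1) had peaks of both libraries that did not overlap. The matching counts were not made for other genes, so these are descriptions only. Of other genes, 43.4% had a peak of replicate 1 and 49.7% a peak of replicate 2 within 10 kb.

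Other genes of the pathway, from lists drawn up with earlier results known, are counted here beside the 24.4%, 26.8% and 32.9% of genes with a region within 1, 3 and 10 kb. No test was made, and EGLN1 and EGLN3 are on both lists. Of 17 HIF pathway components, 7 had a region within 1 kb (41.2%, 95% Wilson interval 21.6 to 64.0, which holds the 24.4%), 9 within 3 kb (52.9%, 31.0 to 73.8) and 10 within 10 kb (58.8%, 36.0 to 78.4). The 4 highest-ranked were ELOC, a subunit of the VHL ligase (5.41 in replicate 1 and 6.22 in replicate 2), EPAS1 (5.08 and 4.45), ARNT2, a relative of ARNT (4.59 and 4.26), and HIF3A, a further alpha subunit (4.20 and 4.59). Of 45 further HIF targets, 21 had a region within 1 kb (46.7%, interval 32.9 to 60.9), 24 within 3 kb (53.3%, 39.1 to 67.1) and 25 within 10 kb (55.6%, 41.2 to 69.1). Their 4 highest-ranked were the hexokinase gene HK1 (5.49 and 5.07), ZNF395 (4.80 and 5.82) and the histone demethylase genes KDM4C (5.29 and 4.77) and KDM4B (4.62 and 5.15). KDM4C spans 455 kb, ARNT2 194 kb, KDM4B 184 kb and HK1 132 kb, so their windows were far wider than those of most genes. Of other genes over 100 kb, 46.0% had a region within 1 kb, and the shares of these lists were not weighted to span.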

How the data were processed

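DEK ChIP-seq was read from 1 deposited peak list per library (2 replicates, 1 group). Per the submitters' processing notes, the build was GRCh38 (hg38) and the tools included MACS2 2.2.7.1, Bowtie2 2.2.5 and cutadapt 1.18, with no role stated for any. Whether a control library entered the calling was not stated in the labels. The authors' deposited columns are the fold enrichment (a linear ratio), −log10 p, −log10 q (lowest 1.309 and 1.303), a score that is 10 times −log10 q, and the summit offset. The score was not used further.

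Peaks on chromosomes 1 to 22 and X were kept, which left out 0.591% and 0.5%. Peaks sharing at least 1 bp between the libraries were joined into a region, whose fold enrichment in each library is that of the strongest peak there. Its percentile is the mean of its percentiles among the 12590 shared regions in both libraries. Gene spans came from RefSeq, GRCh38.p14, and starts and sequences from its promoter table. Pileup k and background b were solved from fold = (k + 1)/(b + 1) and the Poisson p, and the solver was tested on simulated data. Python 3.11.15, pandas 2.3.3, numpy 2.4.6, scipy 1.17.1 and matplotlib 3.10.9 were used.

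The 32 genes, their roles and the other lists were chosen with earlier results of these data known. All 32 are named, with the highest-ranked region within 1 kb where there was 1, or else the nearest, and the 4 highest-ranked of each other list. No test was run. Read depth is unknown here, and precision rests on pileups and 95% intervals. Alternatives changed the replicates, thresholds, overlap, windows and the genes compared with.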

Additional observations from a re-analysis of the deposited data

How the results depend on the processing

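In all 13 alternatives at each width the share of the hypoxia and HIF target genes was above that of other genes. The margin was 0.578 to 31.1 percentage points at 1 kb, 0.347 to 33.7 at 3 kb and 2.77 to 37.4 at 10 kb. The lowest margin at each width, with a fold enrichment of at least 5, rests on too few genes to give a direction. There the Wilson interval of the hypoxia genes held the share of other genes. At 1 kb it also did so with −log10 q of at least 5 (11.0 to 38.8, against 11.1%). Around gene ends it did so at 1 kb (6.86 to 31.8, against 7.52%). At 10 kb it did so with both sets limited to CpG-rich promoter windows (41.3 to 82.7, against 43.3%). With −log10 q of at least 5, the counts were 7, 9 and 12 of 32 genes within 1, 3 and 10 kb (21.9%, 28.1% and 37.5%, against 11.1%, 12.2% and 15.4% of other genes). With a fold enrichment of at least 5 they were 1, 1 and 2 (CA12, joined by ANGPTL4 at 10 kb; against 2.55%, 2.78% and 3.48% of other genes), too few to give a direction. Windows around the annotated gene ends, which also reach into the gene, gave 5 genes at 1 kb (15.6%, against 7.52%). Without replicate 1 or without replicate 2 the counts ranged from 20 to 22 at 1 kb, 22 to 24 at 3 kb and 25 to 27 at 10 kb. Summits within 100 bp gave 11, 13 and 14 genes (34.4%, 40.6% and 43.8%, against 17.7%, 19.6% and 24.4% of other genes). With hypoxia genes and other genes both limited to CpG-rich promoter windows, an alternative chosen after seeing the data, 11 of 17 were counted at each width (64.7%, against 33.6%, 36.8% and 43.3%). The median fold enrichment of the highest-ranked region per gene, 3.88, was 3.52 with the mean of all regions of a gene, and 3.69 without replicate 1 and 3.84 without replicate 2. The cause of these shifts was not tested. No paired analysis was possible because there is 1 group. Pileups of the 36 regions were 17 to 54 in replicate 1 and 17 to 60 in replicate 2, and what depth limits was not tested.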

Other observations

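Counted in windows around both annotated ends of a gene, which also reach into it and at 10 kb cover the whole of a short gene, the number of hypoxia and HIF target genes with a DEK region grew from 5 at 1 kb to 15 at 3 kb and 20 at 10 kb. The share of other genes over the same widths was 7.52%, 13.7% and 25.1%. The 5 at 1 kb were SLC2A1, VEGFA, DDIT4, LDHA and ENO2.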
